A study of Mus musculus with 13 samples.

Results

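The comparison described here set distal forelimb (DFL) against proximal forelimb (PFL) cells of mouse embryos of allele 542 at E12.5, by ATAC-seq, where accessible DNA is cut and tagged with the transposase Tn5. It used the 4 libraries labelled 542 DFL replicates 1 and 2 and 542 PFL replicates 1 and 2, of 13 libraries in the series. In each library the 50000 strongest called regions of chromosomes 1 to 19 were kept, ordered by the −log10 q-value of the peak caller and then by fold, the ratio of tags at a summit to the local background. Joined by any overlap, the 4 lists gave 76104 consensus regions. A region in both DFL lists and in neither PFL list was called DFL-only, and there were 7142 of these (9.38%). A region in both PFL lists and in neither DFL list was called PFL-only, and there were 6715 (8.82%). A further 29219 regions were shared by all 4 lists, and 33028 fell in none of these classes. Without DFL replicate 1 or 2 the DFL-only set grew to 12312 or 12518 regions, and without PFL replicate 1 or 2 the PFL-only set grew to 12255 or 12554, since presence in 1 library was then enough.

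All embryos were of the B6CBAF1 background and untreated. Allele 542 is a single founder line, in which a single copy of II1 was inserted with an HBB promoter and a LacZ reporter into T-DOM, the domain telomeric to the HoxD genes. Native II1, active in distal limb cells, lies in C-DOM, the centromeric domain. Per the study, the 542 embryos were homozygous for it. DFL and PFL libraries both carried this insertion, so that it does not set the groups apart. Wild-type (wt) DFL and PFL libraries, 2 of each, and forebrain (FB) libraries of both genotypes, 2 of each, served as libraries that did not choose the regions. Replicates came from separate pools of several embryos of different litters, with 50000 cells per library. In such bulk samples, a region open in more cells and a region cut more often per cell cannot be told apart.

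In the developing limb the distal part forms the digits and the proximal part the arm. HOX proteins of group 13 act in distal cells, where C-DOM controls the HoxD genes, while MEIS proteins and T-DOM act in proximal cells. Muscle precursors enter the limb from the somites and express bHLH proteins such as MYOD, which bind E-boxes. Accessible regions away from gene starts often are enhancers, whose short motifs are read by such factors.

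The sequences of 11 members, the 200 bp centred on the strongest summit, are shown first because they carry the motifs that the later comparisons count. They are plus-strand sequence, 5′ to 3′, read from GRCm38 (mm10), and capitals mark every match to the 15 motifs searched, on either strand. The 3 strongest DFL-only regions had the nearest coding gene starts at Klf7 (chr1:64164693-64164892), Fam49a (chr12:12509256-12509455) and Flrt2 (chr12:94575071-94575270). The region near Klf7 held a TEAD, an AP-1 and a RUNX match, the one near Flrt2 an AP-1 match, and the one near Fam49a no match.
Klf7: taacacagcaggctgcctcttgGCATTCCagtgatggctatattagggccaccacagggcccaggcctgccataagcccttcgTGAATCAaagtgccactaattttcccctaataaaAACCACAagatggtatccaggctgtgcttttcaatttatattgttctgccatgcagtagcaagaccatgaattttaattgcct
Fam49a: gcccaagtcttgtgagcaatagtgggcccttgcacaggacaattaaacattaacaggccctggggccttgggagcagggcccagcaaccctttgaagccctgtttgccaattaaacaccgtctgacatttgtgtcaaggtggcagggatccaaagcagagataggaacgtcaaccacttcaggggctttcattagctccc
Flrt2: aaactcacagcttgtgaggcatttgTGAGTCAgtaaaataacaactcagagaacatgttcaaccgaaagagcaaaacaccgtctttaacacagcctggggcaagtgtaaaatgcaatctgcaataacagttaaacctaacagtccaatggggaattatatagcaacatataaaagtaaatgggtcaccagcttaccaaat

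The 3 strongest PFL-only regions had the nearest coding gene starts at Styk1 (chr6:131340109-131340308), Cluap1 (chr16:3924077-3924276) and Cxcl15 (chr5:90819920-90820119). In these, capitals mark a PBX and HOX and a TEAD match, a RUNX and an E-box CATATG match, and an E-box CAGCTG match, in that order.
Styk1: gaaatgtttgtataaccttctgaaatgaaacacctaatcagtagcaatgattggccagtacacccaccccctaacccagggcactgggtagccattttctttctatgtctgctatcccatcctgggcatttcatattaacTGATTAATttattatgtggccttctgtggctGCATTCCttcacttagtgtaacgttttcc
Cluap1: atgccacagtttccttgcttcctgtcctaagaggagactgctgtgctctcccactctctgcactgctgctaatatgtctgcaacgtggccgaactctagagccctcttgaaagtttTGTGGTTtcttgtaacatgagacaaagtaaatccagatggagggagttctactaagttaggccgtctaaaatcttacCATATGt
Cxcl15: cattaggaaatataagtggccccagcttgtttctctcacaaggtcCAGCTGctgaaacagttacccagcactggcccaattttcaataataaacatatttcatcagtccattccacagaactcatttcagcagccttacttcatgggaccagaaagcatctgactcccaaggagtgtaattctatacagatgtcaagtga

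The strongest DFL-only regions that held homeobox or HOX13 letters were chosen after their values were seen. The letters TAATTA stood in a region in an intron of Snd1 (chr6:28491417-28491616). The HOX13 letters CCAATAAA, here on the minus strand, stood in an intron of Syce1 (chr7:140780744-140780943), and the form CTCGTAAA, also on the minus strand, stood in an intergenic region (chr14:91852385-91852584) whose nearest coding start was that of Pcdh9.
Snd1: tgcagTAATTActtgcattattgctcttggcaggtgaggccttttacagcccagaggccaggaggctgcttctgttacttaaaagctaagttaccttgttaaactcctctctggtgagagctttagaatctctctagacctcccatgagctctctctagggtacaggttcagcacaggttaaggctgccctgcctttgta
Syce1: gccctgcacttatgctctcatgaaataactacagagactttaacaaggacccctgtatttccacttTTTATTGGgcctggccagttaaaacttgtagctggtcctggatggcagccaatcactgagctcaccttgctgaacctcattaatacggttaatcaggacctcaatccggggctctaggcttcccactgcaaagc
Pcdh9: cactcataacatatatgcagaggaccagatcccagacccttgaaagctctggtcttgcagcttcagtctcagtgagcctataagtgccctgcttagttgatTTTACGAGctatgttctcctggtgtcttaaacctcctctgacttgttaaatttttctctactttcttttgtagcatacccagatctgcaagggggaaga

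For PFL-only regions, the strongest with the MEIS letters lay in an intron of Adamts8 (chr9:30985802-30986001), and the strongest with CAGCTG near a gene of the muscle list was intergenic, 59347 bp from the start of Myod1 (chr7:46317027-46317226), the gene of the myogenic bHLH factor. The Myod1 region held the CAGCTG letters at 2 places.
Adamts8: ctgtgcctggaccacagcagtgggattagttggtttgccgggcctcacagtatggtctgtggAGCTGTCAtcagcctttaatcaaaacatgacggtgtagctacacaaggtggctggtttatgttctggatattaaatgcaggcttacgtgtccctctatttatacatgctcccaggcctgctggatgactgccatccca
Myod1: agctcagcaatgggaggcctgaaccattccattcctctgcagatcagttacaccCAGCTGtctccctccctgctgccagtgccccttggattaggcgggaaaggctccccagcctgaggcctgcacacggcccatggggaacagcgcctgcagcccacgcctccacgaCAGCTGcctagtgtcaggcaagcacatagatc

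Depth was close in the 4 libraries, at 41.4 and 40.2 M tags in DFL and 37.9 and 37.5 M in PFL, as estimated from the deposited values. The libraries held 83032 to 98018 regions on chromosomes 1 to 19. The lists of both DFL libraries overlapped with a Jaccard index (the length in common over the length of the union) of 0.653 and those of both PFL libraries with 0.642, against 0.505 to 0.511 for the 4 pairs of different tissue. The last region inside each list and the first outside had the same values, a fold of 4.61, 4.72, 4.41 and 4.39 in the order above, so that presence in a list is a matter of rank and not of a gap in signal.

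The tissue labels were compared with the regions at the starts of known markers. At Hoxa13, a distal HOX gene, the fold was 10.1 and 8.91 in DFL and 4.75 and 6.38 in PFL. At Hoxd13 it was 9.35 and 8.67 in DFL and 4.78 and 3.395 in PFL. Both were higher in each DFL than in each PFL library. On fold, the other distal markers did not follow them as a group. Msx1 had 6.62 and 6.32 in DFL and 7.14 and 9.795 in PFL, the start of Sall1 was called only in PFL, with 5.51 and 5.29, and that of Evx2 in none of the 4 libraries. Sall3 was higher in DFL, while Msx2 had 5.90 and 6.81 in DFL and 7.76 and 6.86 in PFL. On tags, given below, the starts of Msx1 and Msx2 were higher in DFL. Summed over the 7 distal markers the fold was 39.5 and 36.9 in DFL and 33.9 and 36.9 in PFL, so that on fold the starts as a group did not separate the tissues. At Hoxa11, which marks the middle limb segment, a fold of 2.14 was called in 1 DFL library only, and 3.29 and 4.17 in PFL. At Hoxa10 the fold was 3.28 and 3.31 in DFL and 6.095 and 4.89 in PFL. At Meis2, a proximal marker, the start was higher in DFL, with 12.0 and 10.3 against 5.42 and 5.03, against its use as a proximal marker. At Twist1, a gene of limb mesenchyme, the 4 values lay between 10.4 and 10.9. Of 4 blood markers only Tal1 had a called start region, but Gata1, on chromosome X, was outside the chromosomes kept. No start region was called at Sox10 in any of the 4 libraries. Regions at the starts of 6 muscle markers had a summed fold of 10.1 and 16.2 in DFL and 22.5 and 19.6 in PFL.

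The first question was what the members of each set look like. By rule, they differ between the 4 libraries, so their folds are given as a description. The strongest DFL-only region (chromosome 1, 64164413 to 64165162) showed folds of 13.6 and 14.8 in DFL, no called region in PFL replicate 1 and a fold of 4.19 in PFL replicate 2. It lay 42511 bp from the start of Klf7, which codes for a zinc finger factor. In wt DFL the fold there was 13.97 and 14.2, and in wt PFL 2.57 and 2.86. The region near Fam49a (chromosome 12, 12508889 to 12509961) had a fold of 13.7 and 14.5 in DFL, and it was also called in 542 FB, with 9.53 and 9.01. It was the only one of the 6 strongest DFL-only regions in a forebrain list. Regions near Ppargc1a and Ipmk were not called in either 542 PFL library at any rank, and their folds in 542 DFL were 14.1 and 13.7, and 13.8 and 14.02. The region in Snd1 had a fold of 13.5 and 14.6 in 542 DFL and of 3.96 and 2.996 in 542 PFL. In wt PFL the same region had a fold of 7.40 and 7.24 and was in both lists. The remaining 5 regions were in both wt DFL lists and in no wt PFL list.

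The strongest PFL-only region lay in an intron of Styk1 (chromosome 6, 131339805 to 131340534), where the folds were 16.5 and 15.6 in PFL, 3.32 in DFL replicate 1 and no called region in DFL replicate 2. In wt PFL it had 12.7 and 11.5, and in wt DFL 3.22 and 4.03. The region near Cxcl15, a chemokine gene, had 14.8 and 14.6 in 542 PFL and no called region in 542 DFL. At Cluap1, Bcl2l14, Slc7a11 and Sema3d the picture in wt was less sharp. The region in an intron of Slc7a11, for example, was not called in 542 DFL and had 12.97 and 15.2 in 542 PFL, but in wt it had 5.41 and 5.36 in DFL and 11.2 and 13.2 in PFL. The region near Sema3d, which codes for a guidance protein, had 8.94 and 5.25 in wt DFL and 15.8 and 15.9 in wt PFL. These 4 regions were in all 4 wt limb lists, so that only Styk1 and Cxcl15 of the 6 repeated the PFL-only pattern in wt. None of the 6 was called in 542 FB.

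**Figure D1:**
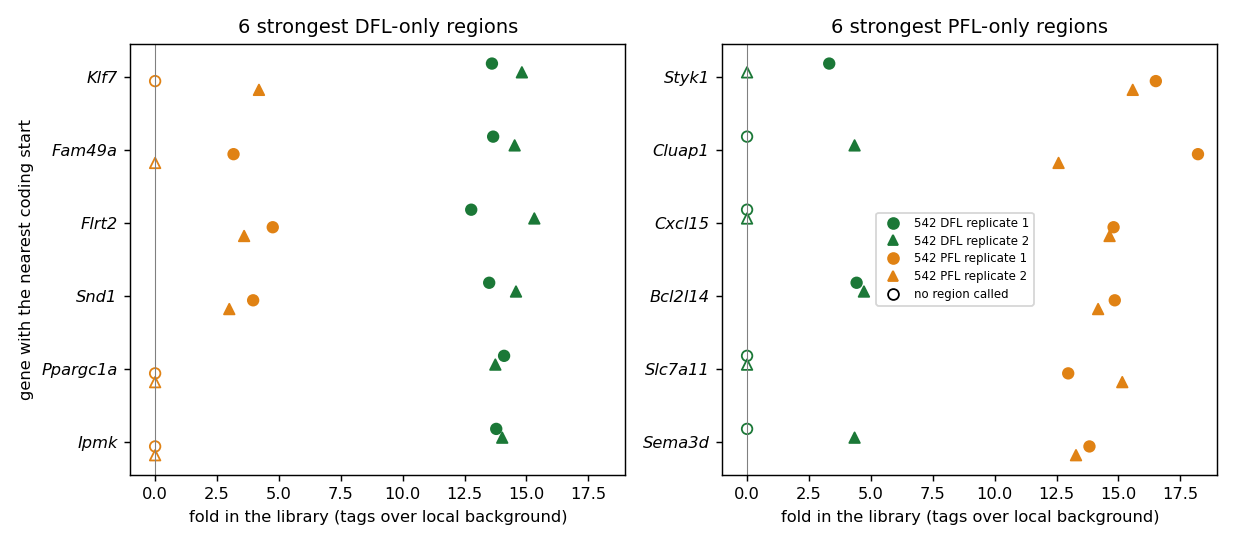
Fold of the 6 strongest DFL-only and the 6 strongest PFL-only regions in each 542 limb library, with the gene of the nearest coding start on the vertical axis. Filled symbols are called regions, open symbols at 0 mark libraries without a called region, and members of either set sit above 12 in their own tissue and below 5 in the other.

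Across a whole set, signal in the other tissue was often weak rather than missing. Of the DFL-only regions, 3482 (48.8%) overlapped no called region of any rank in PFL, 2016 (28.2%) overlapped one in 1 PFL library and 1644 (23.0%) in both. Of the PFL-only regions, 2757 (41.1%) overlapped none in DFL and 2058 (30.6%) overlapped one in both libraries. The PFL libraries held fewer called regions, 92476 and 83032 against 98018 and 95409 in DFL. These shares have no background over all consensus regions and are not comparable between the sets. Where both libraries of the other tissue had a called region, the median ratio of mean folds, own over other tissue, was 1.70 for DFL-only and 1.65 for PFL-only regions. The members had a median fold of 5.91 and 6.04 in the DFL libraries for DFL-only, and of 6.10 and 5.50 in the PFL libraries for PFL-only regions.

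Members lay away from gene starts. A summit within 1 kb of an annotated transcript start (GENCODE M21), here called a promoter position, was found for 6.16% of DFL-only and 7.03% of PFL-only regions. The value was 46.3% for shared regions and 23.4% for all consensus regions. Intergenic positions made up 46.4% and 45.2% of the sets and introns 45.0% and 45.3%. The median distance to the start of the nearest coding gene was 95148 bp for DFL-only and 84127 bp for PFL-only regions, against 14488 bp for shared regions, and 48.6% and 45.6% of members were over 100000 bp away. The nearest gene is therefore used below as a name for a place and not as a target. The median GC content of the 200 bp windows was 46.0% in both sets and 55.5% in shared regions.

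The second question was whether libraries that did not choose the regions show them the same way. Of the 7142 DFL-only regions, 4855 (68.0%) and 4746 (66.5%) were in the lists of wt DFL replicates 1 and 2, and 1083 (15.2%) and 997 (13.96%) in those of wt PFL. Of the 6715 PFL-only regions, 69.0% and 69.4% were in the wt PFL lists and 22.9% in each wt DFL list. Of all consensus regions, 59.6% to 61.3% were in each of these 4 lists. Members of both sets thus appeared above that level in wt libraries of their own tissue and below it in the other tissue.

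The full pattern, in both wt libraries of the tissue and in neither of the other, was found for 2849 DFL-only regions (39.9%) and 2294 PFL-only regions (34.2%). Among all consensus regions 7.22% and 6.16% had these patterns in wt, and among shared regions 1.33% and 0.695%. The opposite pattern was found for 32 DFL-only and 40 PFL-only regions. With 2 libraries per group, no p below 0.333 is possible in an exact permutation test, and none is given. The share with the same pattern in wt went with strength. When DFL-only regions were ordered by mean fold and divided into 4 bins of equal size, it was 21.8%, 30.4%, 43.5% and 63.9% from the weakest bin to the strongest. For PFL-only regions it was 22.3%, 28.3%, 39.4% and 46.7%. A mean fold of at least 7.09 for DFL-only and 6.76 for PFL-only regions marked the strongest bins.

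The sets also differed in forebrain libraries. Of the DFL-only regions, 21.6% to 22.6% were in each of the 4 FB lists, and of the PFL-only regions 11.7% to 12.7%. Both shares were below the 41.2% to 41.8% of all consensus regions. In all 4 FB lists there were 1171 DFL-only (16.4%) and 543 PFL-only regions (8.09%). The share of all consensus regions in all 4 FB lists was not taken, so these counts have no background.

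**Figure D2:**
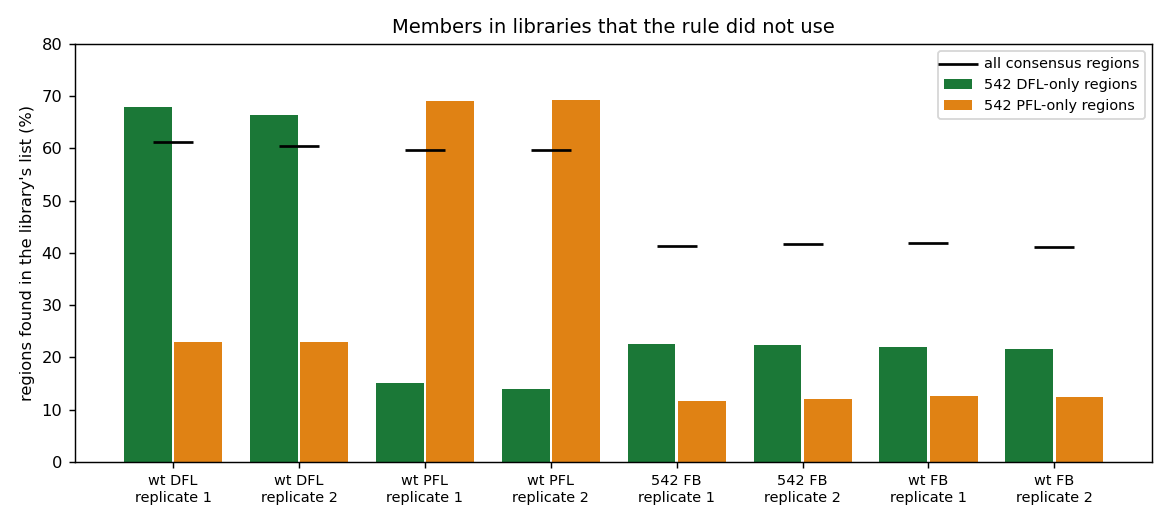
Share of the 542 DFL-only (green) and PFL-only (orange) regions found in the list of each library that the rule did not use, in percent. Black lines mark the share of all consensus regions, which lies between 41.2% and 61.3%, and members of each set rise above the line only in wt libraries of their own tissue.

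The third question was which genes lay nearest to members. At least 1 DFL-only region was assigned to 3678 genes and at least 1 PFL-only region to 3740, of 15720 genes with a consensus region, and 1879 genes had both. Among the 759 genes with 5 or more members, all members were DFL-only at 16 and PFL-only at 13. The largest excess of DFL-only over PFL-only regions was found at Zeb2, a zinc finger repressor gene, with 20 against 6 among 78 consensus regions. Its lists held 52 and 49 regions in DFL and 30 and 37 in PFL, and in wt 37 and 36 in DFL and 33 and 28 in PFL. Tenm2, which codes for a teneurin adhesion protein, had 14 against 2 among 61, and Slc10a2 13 against 2 among 53. Adgrl2 had 23 against 13 among 94 and Cdh8, a cadherin gene, 14 against 4 among 61. Atxn7l3b, 1190002N15Rik and Rwdd3 followed, with 12 against 3, 11 against 2 and 10 against 1, among 38, 28 and 27. Of all consensus regions 9.38% were DFL-only and 8.82% PFL-only.

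On the PFL side the excess was smaller. Tbl1xr1, which codes for a corepressor subunit, had 15 PFL-only against 5 DFL-only regions among 67 consensus regions. Epha7, an ephrin receptor gene, had 12 against 4 among 58. Camk2d and Mpped2 had 11 each against 3 and 4, among 34 and 42. Robo1, which codes for the receptor of Slit guidance proteins, had 17 against 10 among 92. Pcdh17 and Diaph3 had 10 each against 3, among 41 and 57, and Vgll3, a cofactor gene of TEAD proteins, had 8 against 1 among 34. At Vgll3 the lists held 17 and 15 regions in DFL and 22 in each PFL library. The genes were picked for their excess in the 542 lists. In the wt lists, DFL and PFL counts overlapped at Tbl1xr1 (32 and 27 against 28 and 37) and Diaph3 (24 and 26 against 24 and 27). At the other genes with a named excess, wt DFL and PFL counts separated in the same direction, by little at Camk2d (16 and 15 against 17 and 19). When all deposited regions were used, the excess turned to DFL at Tbl1xr1, Mpped2, Pcdh17 and Vgll3 and kept its direction at the other 12 genes. The DFL libraries held more deposited regions, 98018 and 95409 against 92476 and 83032, so this setting is uneven between the tissues. With the 20000 strongest regions per library it turned at Zeb2, Camk2d and Mpped2, where 1 or 2 members were left, and no excess was left at Adgrl2, 1190002N15Rik and Tbl1xr1. With the nearest gene of any kind in place of coding genes, it kept its direction at 4 genes, was lost at 11 and turned at Mpped2.

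Lists of genes with known roles were then counted, 15 in all, by the share of their consensus regions that were members. The lists were chosen with earlier results of these data known, so the shares are a description. The background was 9.38% for DFL-only and 8.82% for PFL-only. The distal limb list stood farthest from it. Of the 231 consensus regions at its 25 genes, 54 (23.4%) were DFL-only and 12 (5.19%) PFL-only. Of these genes, 17 had more DFL-only and 3 more PFL-only regions. At Tfap2b, which codes for an AP-2 factor, there were 9 DFL-only regions and 1 PFL-only region. Sall4 and Sall1, of a family of zinc finger factors of the digits, had 4 and 3 DFL-only regions and no PFL-only region. Msx1, a homeobox gene of distal mesenchyme, and Sp8, a zinc finger gene of the limb ectoderm, had 4 each and Dlx6, a homeobox gene, had 3, again with no PFL-only region. Msx2 had 3 against 1, and Lmo1 had 4 against 1. Tbx3, Tbx4 and Cyp26b1, a gene that removes retinoic acid, had more PFL-only regions, with 3 against 2, 2 against 1 and 2 against 1.

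The strongest at Tfap2b (chromosome 1, 19647688 to 19648835) had a fold of 6.55 and 8.60 in 542 DFL, no called region in 542 PFL, and was in both wt DFL lists and in no wt PFL list. The strongest at Msx1 (chromosome 5, 37895393 to 37896183) had 8.03 and 6.34 in 542 DFL and no called region in 542 PFL, and it had the same pattern in wt. The strongest at Sall4 (chromosome 2, 168790876 to 168791480) had 7.56 and 6.04 in DFL and 4.16 and 3.79 in PFL. It was in 1 wt DFL list and in both wt PFL lists, so that its DFL-only pattern did not recur in wt.

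The muscle list was the one with the highest PFL-only share. Of the 195 consensus regions at its 19 genes, 36 (18.5%) were PFL-only and 15 (7.69%) DFL-only, and 10 genes had more PFL-only against 1 with more DFL-only regions. Eya1 and Eya4, transcriptional cofactor genes of muscle precursors, each had 7 PFL-only regions, against 3 and 2 DFL-only regions. Myod1 had 3 PFL-only and no DFL-only region. Its strongest (chromosome 7, 46316907 to 46317517) had a fold of 9.54 and 7.65 in 542 PFL, 3.32 in DFL replicate 1 and no called region in DFL replicate 2. All 3 regions at Myod1 were in both wt PFL lists and in no wt DFL list. Ttn, which codes for the sarcomere protein titin, also had 3 PFL-only and no DFL-only region. At the start of Myog, the myogenin gene (chromosome 1, 134289531 to 134290106), the fold was 6.88 and 5.94 in PFL, 3.59 in DFL replicate 2, and no region was called in DFL replicate 1. The start of Myod1 itself was not higher in PFL, with 4.45 and 6.04 in DFL and 4.92 and 3.44 in PFL. Fgfr4, a receptor gene of muscle precursors from the Fgf list, had 3 PFL-only regions and no DFL-only region. The summed fold at muscle marker starts given above moved with these regions, and its part in them was not tested.

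The lists of signalling genes were near the background as a whole, and the counts of single genes are small. In the Bmp and Tgf-beta list, 56 of 503 regions (11.1%) were DFL-only and 55 (10.9%) PFL-only. In it the ligand genes Inhba, Bmp2 and Bmp7 had 9, 8 and 3 DFL-only regions against 2, 2 and 0 PFL-only regions, of 41, 50 and 18 consensus regions. The receptor genes Tgfbr2 and Bmpr1b had 2 and 7 against 6 and 9, of 32 and 44. The strongest member at Inhba (chromosome 13, 16825405 to 16826042) had a fold of 9.64 and 10.6 in DFL and 2.54 and 2.87 in PFL, and lay 813909 bp from the gene's start. In the Wnt list, 41 of 422 regions (9.72%) were DFL-only and 36 (8.53%) PFL-only. The ligand gene Wnt5a had 4 DFL-only and no PFL-only region among 23. Wnt11 had 3 PFL-only and no DFL-only region among 22, and the antagonist gene Dkk2 had 6 PFL-only against 1 among 32. In the retinoic acid list, 19 of 158 regions (12.0%) were PFL-only and 14 (8.86%) DFL-only. Its gene Cyp26a1 had 3 PFL-only regions, of which the strongest (chromosome 19, 37851380 to 37852314) had a fold of 9.48 and 8.79 in 542 PFL, a fold of 2.45 in DFL replicate 2 only, and stood in all 4 wt limb lists. In the Fgf list the shares were 10.2% (27 of 266) and 9.02% (24 of 266).

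The proximal limb list did not lean to PFL. Of its 353 regions, 47 (13.3%) were DFL-only and 38 (10.8%) PFL-only. Meis1 had 6 PFL-only against 4 DFL-only regions, while Nr2f1, Zfhx4 and Tbx18 had 10, 6 and 5 DFL-only against 5, 2 and 1 PFL-only regions. Meis2 had 2 DFL-only regions and no PFL-only region. Limb mesenchyme genes had 58 of 377 (15.4%) DFL-only and 38 (10.1%) PFL-only regions, of which Zeb2 alone gave 20 and 6. The values were 11.1% and 8.98% for anterior-posterior patterning, 11.1% and 10.5% for cartilage and bone, and 8.33% and 8.68% for joint and connective tissue, DFL-only first. For other cell types they were 12.1% and 7.76% at ectoderm genes, 12.2% and 10.6% at blood and endothelium genes, 10.1% and 7.87% at neural crest and nerve genes, and 13.2% and 6.14% at forebrain genes. The ectoderm gene Tfap2a had 3 DFL-only regions and no PFL-only region.

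**Figure D3:**
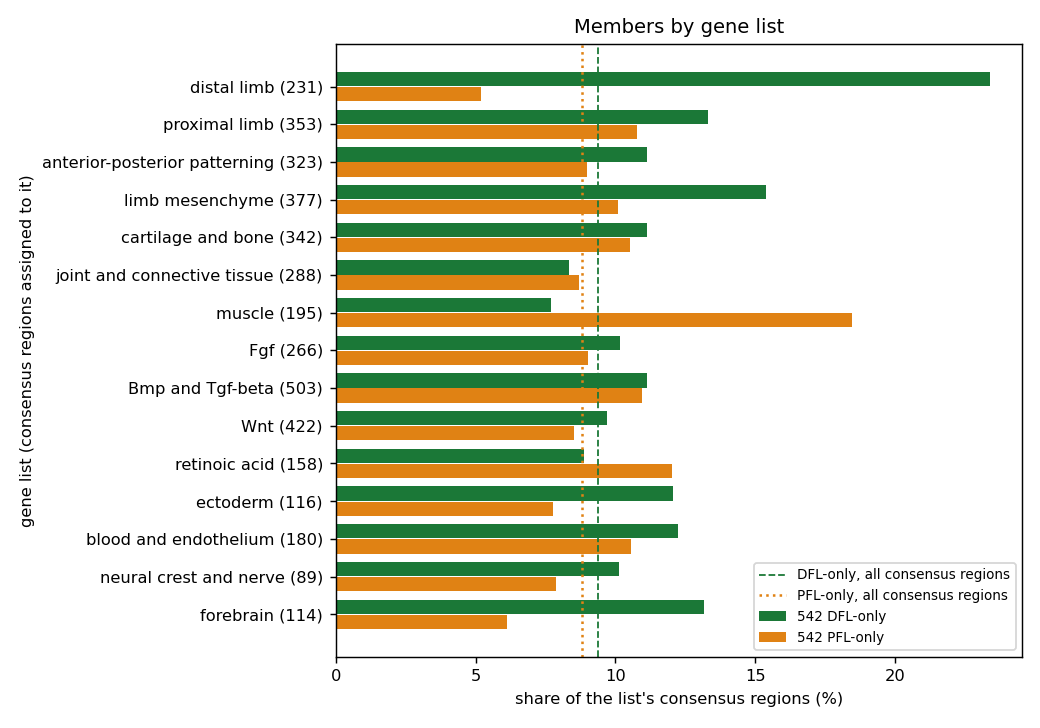
Share of the consensus regions assigned to each gene list that were DFL-only (green) or PFL-only (orange), in percent, with the number of consensus regions in brackets and the shares over all consensus regions as lines. The distal limb list reaches 23.4% DFL-only and the muscle list 18.5% PFL-only.

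The fourth question was whether motifs differ between the tissues. The share of the 50000 windows of 200 bp that held given letters on either strand was taken in each of the 8 limb libraries, over all regions of the list and not over the members. The 4 DFL and 4 PFL libraries of both genotypes were compared by two-sided exact permutation tests, adjusted over 15 motifs by the Benjamini-Hochberg method. A p of 0.0286, adjusted to 0.0429, is the smallest that 70 divisions allow, and 10 motifs reached it. Within allele 542 alone the values are given without a test. The regions of both genotypes overlap, so the libraries share most of their windows.

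The homeobox letters TAATTA, read by LIM, MSX, DLX and PRRX proteins, stood in 6.96% and 6.83% of windows in 542 DFL and in 3.20% and 3.22% in 542 PFL. With wt included the shares were 6.59% ± 0.352 in DFL and 3.35% ± 0.162 in PFL (SD, n = 4 each), higher in all 4 DFL than in all 4 PFL libraries (exact permutation test, adjusted p = 0.0429). Both HOX13 forms followed the same order. CCAATAAA stood in 1.59% and 1.66% of 542 DFL and 0.834% and 0.936% of 542 PFL windows, and over 4 libraries each in 1.57% ± 0.0686 and 0.90% ± 0.0482. CTCGTAAA stood in 0.372% and 0.36% of 542 DFL and 0.176% and 0.192% of 542 PFL windows, and over 4 libraries each in 0.352% ± 0.0189 and 0.192% ± 0.0118. The adjusted p was 0.0429 for each (exact permutation test).

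Letters of E-boxes, MEIS and RUNX proteins were more frequent in PFL. CAGCTG, read by bHLH proteins such as MYOD and TCF12, stood in 17.7% and 17.6% of 542 DFL and 22.0% and 21.4% of 542 PFL windows. Over 4 libraries each the values were 17.6% ± 0.138 and 21.2% ± 0.687 (SD; exact permutation test, adjusted p = 0.0429). CATATG, an E-box of TWIST proteins, stood in 3.47% and 3.59% of 542 DFL and 4.80% and 4.86% of 542 PFL windows. The MEIS letters TGACAGCT stood in 1.38% and 1.4% against 1.93% and 1.87%. RUNX letters (TGTGGTT) were at 4.15% and 4.21% against 4.95% and 4.81%, and those of PBX with a HOX partner (TGATTNAT) at 2.37% and 2.33% against 2.58% and 2.49%. These 4 motifs had the same adjusted p of 0.0429 in the exact permutation test over 8 libraries, lower in all 4 DFL libraries.

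CTCF core letters (AGGGGGC) were higher in DFL and GLI letters (GACCACCC) higher in PFL at the same adjusted p of 0.0429 in the exact permutation test, with differences of 0.226 and -0.0445 percentage points, DFL minus PFL. No difference past the threshold was found for the letters of SOX (AACAATGG), TEAD (GGAATGC), AP-1 (TGANTCA) and NFI (TTGGCNC) proteins and those of the GATA family (AGATAAG), where the exact permutation test gave an adjusted p of 0.234 to 0.771. With the 20000 strongest regions per library, none of the 15 motifs passed (no adjusted p under 0.0612), and the difference for the CTCF core letters turned to -0.135 percentage points. The smallest possible p passes the adjustment only when enough motifs reach it. That none passed thus does not show that the differences were absent there. The GLI call was also lost with windows of 100 bp (adjusted p = 0.264, exact permutation test) and 400 bp (0.0857). TGACAGCT followed by G also holds CAGCTG, and PBX and homeobox letters can overlap, so these counts are not independent.

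**Figure D4:**
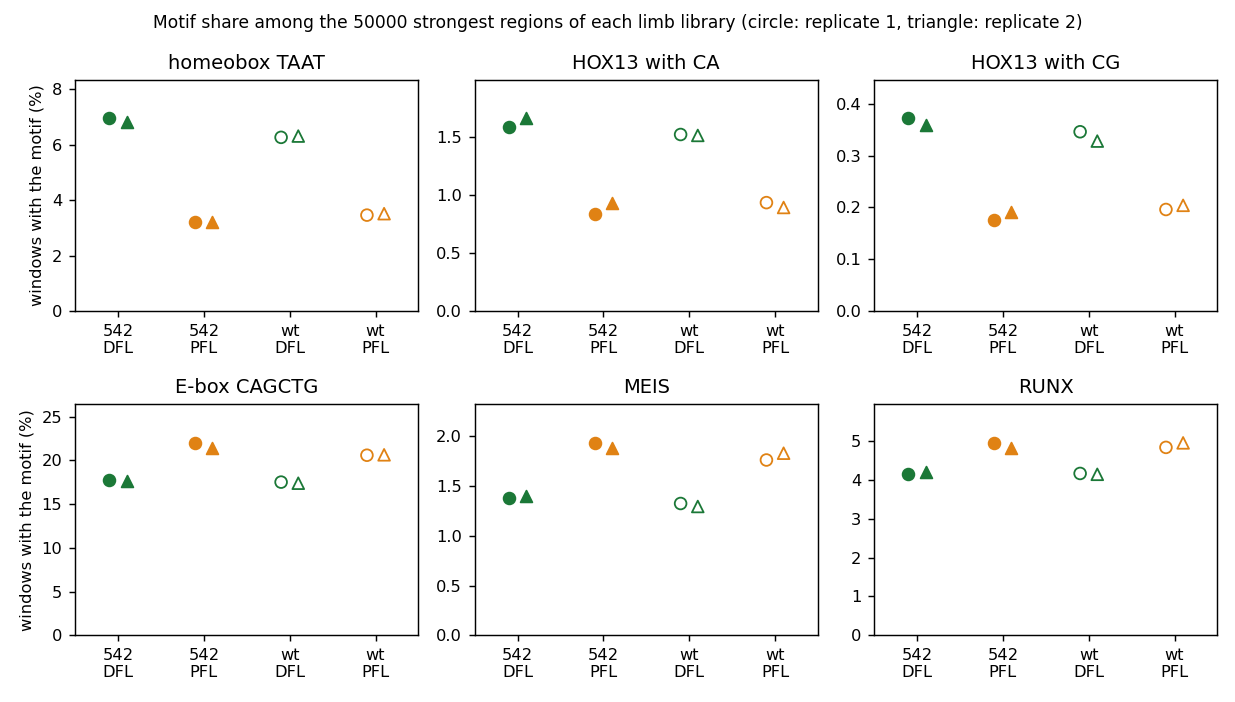
Share of the 50000 windows of 200 bp with the letters of 6 motifs in each limb library, in percent, from 0 on each vertical axis. Filled symbols are 542 and open symbols wt, and DFL and PFL libraries do not overlap in any of the 6 panels.

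Among the members the same letters were farther apart, which is given as a description. TAATTA stood in 17.2% of DFL-only windows, 2.49% of PFL-only windows, 3.31% of shared windows and 6.13% of all consensus windows. CAGCTG stood in 16.2% of DFL-only and 31.5% of PFL-only windows, against 20.9% of all consensus windows. For CCAATAAA the shares were 3.74% and 0.774%, against 1.44%, and for CTCGTAAA 0.728% and 0.164%, against 0.321%. For TGACAGCT they were 1.18% and 3.22%, against 1.79%, for CATATG 4.09% and 9.501%, against 4.84%, for TGTGGTT 4.62% and 7.31%, against 4.99%, and for TGATTNAT 3.501% and 4.32%, against 2.84%. Of the remaining letters, GGAATGC stood in 4.08% and 6.27% (4.43% of all consensus windows), TGANTCA in 6.44% and 7.09% (5.73%), AGGGGGC in 4.06% and 3.65% (7.54%) and TTGGCNC in 10.1% and 7.46% (9.98%). AACAATGG, AGATAAG and GACCACCC stood in at most 1.10% of either set, and in 0.665%, 1.03% and 0.507% of all consensus windows. Windows over 1 kb from a transcript start gave 17.5% and 2.55% for TAATTA and 16.1% and 31.4% for CAGCTG. Thus most DFL-only windows held none of the homeobox or HOX13 letters, and the strongest of the 4 bins of DFL-only regions held CCAATAAA in 4.82%, against 2.58% in the weakest.

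The fifth question was whether shared regions differ in strength between the tissues. These regions belong to neither set. limma on the log2 fold, with each library centred on its median over 29219 regions, called 0 regions stronger in DFL (0%) and 0 stronger in PFL (0%) at a Benjamini-Hochberg adjusted p of 0.05. The lowest adjusted p was 0.0665, shared by the leading regions, 4666 regions had an unadjusted p under 0.05, and 804 had an adjusted p under 0.1, of which 459 were stronger in DFL and 345 in PFL. The test was also made on tags under the summit, a measure not divided by local background, for the 27425 regions where they could be recovered in all 4 libraries. This called 1265 regions stronger in DFL (4.61%) and 1093 stronger in PFL (3.99%). The outcome thus rested on the measure, and without 1 of the DFL libraries the calls on tags fell to 112 or 149 for DFL and 67 or 88 for PFL. Tag calls were set beside wt libraries, which had no part in them. The wt difference had the same sign for 1215 of 1246 DFL calls (97.5%) and 1018 of 1086 PFL calls (93.7%), against 68.1% of all regions tested on either side. Promoter positions made up 9.25% of DFL and 13.4% of PFL calls, against 32.6% and 50.5% of all regions tested on these sides.

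The regions with the smallest adjusted p on tags are named as such, since none passed on fold. A region 232347 bp from the start of Myh15 (chromosome 16, 49289207 to 49290224) had 205 and 204 tags in DFL and 36 and 24 in PFL, a log2 difference of 2.59 ± 0.198 (SE; limma, adjusted p = 0.000736). In wt it had 300 and 249 tags in DFL and 103 and 89 in PFL. Its fold was 10.4 and 9.35 in DFL and 5.23 and 4.14 in PFL. The regions near Tas2r118, Ptprb, Crnn and Tlnrd1 followed, with log2 differences in tags of 2.35 to 2.45. On the PFL side a region 473230 bp from the start of Isl1 (chromosome 13, 115835907 to 115836839) had 33 and 32 tags in DFL and 137 and 145 in PFL, a log2 difference of -2.25 ± 0.194 (SE; limma, adjusted p = 0.000759). In wt it had 54 and 63 tags in DFL and 172 and 147 in PFL. Isl1 codes for a LIM homeodomain factor. Regions near Cdh11, Pcdh17, Nfkbia and Car8 followed, with log2 differences of -2.28 to -2.02. At the starts of list genes, Sall3 had 114 and 79 tags in DFL and 34 and 48 in PFL (log2 difference 1.05, limma, adjusted p = 0.0368). Cdh15, a muscle cadherin gene, had 35 and 34 in DFL and 70 and 49 in PFL (log2 difference -0.91, limma, adjusted p = 0.0175). The other starts that passed on tags were Pth1r, higher in DFL with a log2 difference of 0.71, and Rxrg, Erbb3, Pbx3 and Ebf3, higher in PFL with -0.95 to -0.69 (limma, adjusted p of 0.0176 to 0.0446 for these 5). In wt the log2 difference in tags was 0.83 at Sall3, -0.77 at Cdh15, -0.54 at Erbb3 and -0.33 at Rxrg. It was -0.13 at Pbx3 and -0.043 at Ebf3, where the wt tags of both tissues overlapped. At Pth1r tags were not recovered in every wt library, and no wt difference was formed. The start of Msx1 had 125 and 124 tags in DFL and 71 and 85 in PFL, and that of Msx2 81 and 93 against 53 and 47. Neither passed on tags (limma, adjusted p = 0.175 and 0.0682). In wt DFL and PFL, Msx1 had 169 and 174 against 90 and 94 tags, and Msx2 151 and 113 against 36 and 64. For these starts the direction thus differed between tags and fold in 542. Among shared regions of the distal limb list, 7 of 53 (13.2%) were stronger in DFL on tags and 0 in PFL, against 4.61% and 3.99% of all regions tested. Shares near it for DFL were found in other lists too, with 16% (4 of 25) for ectoderm, 14.3% for anterior-posterior patterning, 12.1% for proximal limb and 11.5% for Fgf genes.

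**Figure D5:**
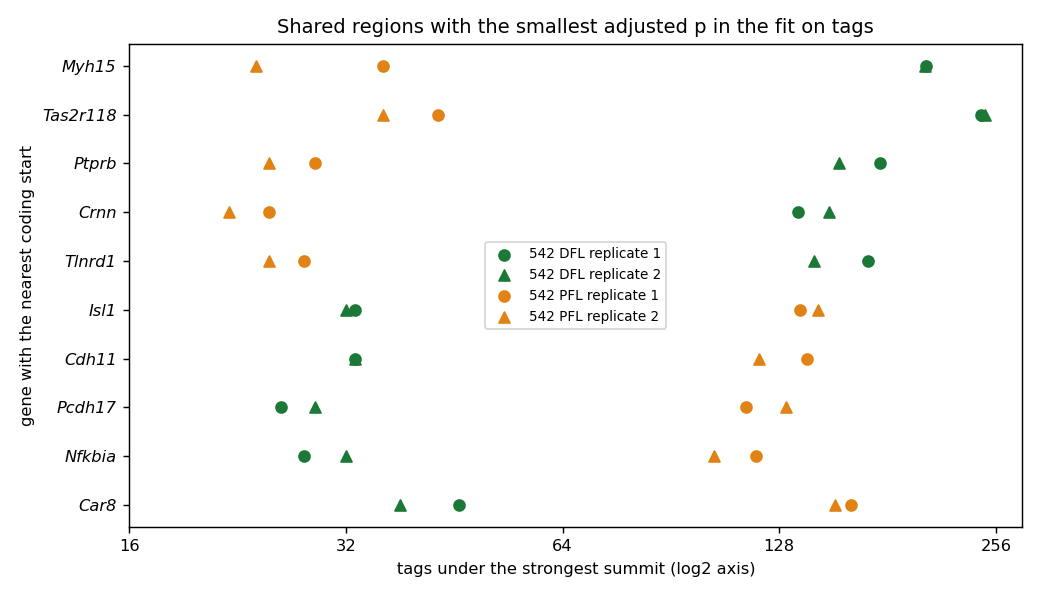
Tags under the strongest summit in each 542 limb library, on a log2 axis, for the 5 shared regions per direction with the smallest adjusted p in the limma fit on tags. DFL and PFL libraries do not overlap in any row, and the same regions did not pass the threshold on log2 fold.

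To ask whether the distal to proximal difference differs between 542 and wt, 26039 regions present in all 8 limb lists were fitted with an interaction of genotype and tissue. limma on log2 fold called 0 regions (0%), while 1946 had an unadjusted p under 0.05, and the lowest adjusted p was 0.519. This covers only regions strong in all 8 libraries. The mapping genome went with the genotype and cannot be told apart from it.

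Finally the HoxD locus was described, whose C-DOM serves distal cells and whose T-DOM serves proximal cells. C-DOM held 10 DFL-only and 4 PFL-only regions among 28 consensus regions. The HoxD cluster held 2 and 0 among 12, and T-DOM 2 and 6 among 40, the insertion not counted. DFL-only regions made up 35.7% in C-DOM, 16.7% in the cluster and 5% in T-DOM, against 9.38% of all consensus regions. PFL-only regions made up 14.3% in C-DOM and 15% in T-DOM, against 8.82%, so that this share was much alike in both domains. In C-DOM the DFL-only region of the highest mean fold (chromosome 2, 74272093 to 74273079) had 6.82 and 8.56 in 542 DFL, no called region in 542 PFL and 8.24 and 8.42 in wt DFL. A region at 74239515 to 74240045 had 6.64 and 7.55 in 542 DFL and no called region in 542 PFL. A PFL-only region only some kilobases away, at 74243682 to 74244175, had 3.32 and 3.72 in DFL and 8.45 and 7.28 in PFL, so that both patterns stood side by side. An exon of Evx2, the gene next to Hoxd13, held a DFL-only region (74655212 to 74656269) with 4.52 and 4.95 in DFL and 3.07 in PFL replicate 2 only.

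Within the cluster, the region at the start of Hoxd12 (74674708 to 74675320) met the DFL-only rule with a fold of 3.43 and 3.37 in DFL, although called PFL regions of 3.79 and 3.48 overlapped it. The lists follow the q-value and not the fold. The region in an intron of Hoxd9 (74698279 to 74699251) had 5.15 and 5.75 in DFL and 2.28 in PFL replicate 1 only, and in wt 3.497 and 3.72 in DFL and 3.77 and 2.57 in PFL.

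In T-DOM, a PFL-only region (74993620 to 74994271) had folds of 5.84 and 7.04 in 542 PFL and 9.21 and 8.88 in wt PFL, with no called region in DFL of either genotype. Another, at 74795552 to 74795898, had 5.15 and 6.19 in 542 PFL and no called region in 542 DFL. Going against its domain, a DFL-only region in an intron at 75252610 to 75253299 had 8.66 and 8.40 in 542 DFL and 8.79 and 6.48 in wt DFL, with no called region in PFL of either genotype.

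Native II1 (chromosome 2, 74075307 to 74075849) was overlapped by a DFL-only region (74075659 to 74076192), with folds of 6.01 and 6.03 in 542 DFL, 7.74 and 10.0 in wt DFL and no called region in PFL of either genotype. Another call over native II1, from 74075186 to 74075397, was in the list of DFL replicate 1 only, with a fold of 4.18. A region within the insertion, which holds II1, the HBB promoter and LacZ, also fell in the DFL-only set. It was not divided here between II1 and the promoter. In coordinates of the mutant genome it ran from 75269955 to 75270617 in DFL replicate 1, where the fold was 6.12, and from 75269963 to 75270686 in replicate 2, where it was 6.47. In PFL, overlapping calls had a fold of 3.08 in replicate 1 and 2.65 in replicate 2, at ranks 63416 and 72587 of their libraries and so outside the lists. Another region of the insertion, from 75272648 to 75273327, was in the list of PFL replicate 1 with a fold of 4.38 and in no other of the 4 lists. Reads that lie wholly within II1 have equal origins in the mutant genome and could be lost by the mapping-quality filter, in DFL and PFL alike. The wt libraries were aligned to mm10, without the insertion, so that this loss would not apply to them. The folds of 542 and wt at native II1 are therefore not comparable.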

How the data were processed

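Per the study's methods, the authors trimmed reads with Cutadapt, aligned them with bowtie2 (wt libraries to mm10, 542 libraries to a mutant genome with the insertion), filtered for mapping quality and duplicates, and called regions in each library with MACS2, without a control library and with reads shifted and extended around the Tn5 cut. The deposited regions hold a fold (a ratio of tags to local background), the −log10 p-value and q-value, and a display score, all as the authors' caller wrote them, and the position of the summit.

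Tags under each summit were recovered from fold and p-value to a tolerance of 0.001 (an extension of 200 bp), which gave the depth. Lists of 50000 regions were joined by an overlap of at least 1 bp. Positions of 542 regions behind the insertion were moved back to GRCm38, and the nearest coding start was taken from GENCODE M21. Shared regions were tested with limma 3.58.1 (R 4.3.3) on log2 fold, 2 libraries against 2, centred on the median and adjusted by the Benjamini-Hochberg method. Motifs were counted in 200 bp windows (100 and 400 bp as alternatives) and compared by exact permutation tests. Other steps used Python 3.11.15, numpy 2.4.6, pandas 2.3.3, scipy 1.17.1 and pysam 0.24.0, and the steps were tested on simulated data.

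The regions with the highest mean fold, 6 per set, the 8 genes per direction with the largest excess of members, list genes, and the 5 shared regions per direction with the smallest adjusted p were named. As limma on log2 fold called none, the latter were taken from the fit on log2 of tags plus 1. The members and gene lists were chosen with earlier results of these data known. Alternatives were shorter and full lists, fixed windows, other measures, centring, variance models, the replicate number as a block, and each library left out. Fold is not an absolute measure of accessibility, and p-values measure the spread between pools of embryos.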

Additional observations from a re-analysis of the deposited data

How the results depend on the processing

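The number of regions in each set followed the length of the lists. With the 20000 strongest regions there were 2111 DFL-only and 1905 PFL-only regions, and with all deposited regions 15024 and 10934. Leaving out each library gave 9157 to 12518 DFL-only and 8603 to 12554 PFL-only regions, since presence in 1 library was then enough or, where the library was of the other tissue, absence from 1. The share with the same pattern in wt was 36.7% and 35.98% with all deposited regions, 30.1% for PFL-only regions with 20000, and 26.6% to 34.9% and 23.8% to 29.0% with a library left out. Promoter shares were 8.91% and 14.9% with 20000 regions, 6.79% and 7.76% with 500 bp windows, 6.14% for PFL-only with all deposited regions, and 7.13% to 7.97% and 7.74% to 8.65% with a library left out.

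For shared regions, limma on log2 fold gave 0 calls in either direction also without each library (0 to 0). A mean-variance trend, chosen after seeing the data, gave 304 for DFL and 226 for PFL, and with a robust prior 266 and 195. The planned fit on tags gave 1265 and 1093. In fits added after seeing the data, leaving out DFL replicate 1, DFL replicate 2, PFL replicate 1 or PFL replicate 2 gave 112, 149, 1028 and 1247 calls for DFL and 67, 88, 928 and 1044 for PFL; the cause was not tested.

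The deviations of same-numbered libraries had a correlation of -0.0163, so the replicate numbers were not taken to pair them. With the replicate number as a block, log2 fold gave 0 and 0 calls, and 0 for the interaction, and tags (added after seeing the data) gave 1469 and 1323.

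Of the 15 motifs, 10 passed with the main lists and 0 with 20000 regions, where the CTCF core difference turned to -0.135 percentage points. As the smallest possible p passes the adjustment only when enough motifs share it, this count does not show that the differences were gone. Without replicate 1 or replicate 2, 0 to 0 motifs passed, as 2 libraries per tissue were then left and no p under 0.333 was possible.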

Other observations

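A further wt DFL library, reanalysed from an earlier sample and used in no comparison above, held 4237 of the 7142 DFL-only regions (59.3%) and 1659 of the 6715 PFL-only regions (24.7%) in its list of 50000. Of all consensus regions 58.3% were in that list. It was the deepest of the 13 libraries, with an estimated 77.95 M tags.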
